A study of Mus musculus with 188 samples.

Results

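Single keratinocytes of mouse tail epidermis were read on 2 plates of 94 cells. Of these, 47 held the suprabasal keratin Krt10 at 3000 CPM or more, and 27 of the 47 also held Krt2 at 3000 CPM or more. These 27 cells, called Krt2-high here, are described against the other 20 differentiating cells, called Krt2-low. The cells were selected on measured values of Krt10 and Krt2, so the levels of both genes are given as a description and neither entered any gene count. CPM (counts per 1000000) is a gene's reads divided by the cell's reads over all genes except spike-ins, times 1000000.

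Each library was 1 cell, sorted at postnatal day 20 from the tail epidermis of Lrig1-CreERT2/RosaYFP mice and copied with Smart-seq2, which reads full-length polyadenylated RNA. The gate took cells that lacked CD34, carried integrin alpha 6 on their surface and lacked YFP, and so was aimed at the basal layer of the interfollicular epidermis. Genotype, age, tissue and gate were the same for all cells of both plates. The Cre transgene is meant to mark the Lrig1 lineage with YFP, and the gate left out cells with YFP. When the Cre was induced is not given in the labels, so how much of that lineage was left out is not known. No label names an animal, so the cells form 1 sample. Cells are not replicates, and no p-value, standard error or test was computed. Each SD below is a spread between cells.

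Keratins form filaments from pairs of 1 type I and 1 type II protein. Basal keratinocytes make Krt14 with Krt5, and a cell that leaves the basal layer turns to Krt10, for which Krt1 and Krt2 are the type II partners. Krt2 is known as a keratin of the upper spinous layers and is abundant in mouse tail, ear and sole skin.

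Krt2 and Krt10 were the genes that chose the cells, and their promoter sequences are shown as the regulatory DNA next to that choice. Krt2 lies on chromosome 15 at chr15:101810689-101818169, minus strand, and Krt1 lies 27256 bases away at chr15:101845426-101850794, also on the minus strand. Krt10 lies at chr11:99385254-99389364, minus strand (GRCm38, GENCODE M21). RefSeq entries on GRCm38.p6 were found for 2 of the 3 keratins looked up (Krt2 and Krt10, with Krt1 the third). Each sequence below is the 250 bases before the gene's start, at chr15:101818170-101818419 for Krt2 and chr11:99389365-99389614 for Krt10, printed 5′ to 3′ on the gene's strand, with motif matches in capitals.
Krt2: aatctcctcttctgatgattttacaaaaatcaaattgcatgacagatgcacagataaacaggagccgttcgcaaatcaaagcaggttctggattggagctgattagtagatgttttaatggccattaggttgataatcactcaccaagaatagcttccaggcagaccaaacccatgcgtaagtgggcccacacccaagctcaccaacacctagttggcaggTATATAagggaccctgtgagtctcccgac
Krt10: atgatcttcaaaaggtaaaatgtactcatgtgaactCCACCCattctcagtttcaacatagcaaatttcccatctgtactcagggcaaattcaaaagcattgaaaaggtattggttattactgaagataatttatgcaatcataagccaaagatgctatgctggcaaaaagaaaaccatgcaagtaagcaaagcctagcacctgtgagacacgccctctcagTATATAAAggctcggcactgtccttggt
The letters TATANA, a loose form of the TATA box, were searched on the printed strand after the sequences had been seen. They start at -29 in Krt2 and at -28 and -26, overlapping, in Krt10. The letters CCACCC, which Klf factors can bind, were searched on both strands and start at -214 in Krt10, with no match in the Krt2 window. Of 32851 promoters of the same length, 16.4% hold TATANA and 28.1% hold CCACCC.

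Library quality was alike in the groups. Total counts ran from 79868 to 1080760 in Krt2-high cells (median 379668) and from 103386 to 750139 in Krt2-low cells (median 370364), and the medians of genes with a read were 7609 and 7648. Reads of genes with most reads in 1 cell also turned up in other wells. The fitted rate per 10000 source reads was 30.1 in each other well of the same lettered row on either plate. It was 13.8 in each other well of the same column of the plate. The expected share of such stray reads had a median of 9.02% in Krt2-high and 10.1% in Krt2-low cells. It was 52.9% in 1 Krt2-high cell (plate 2, row B, column 4), which lost its place once stray reads were subtracted. After subtraction 25 of the 27 Krt2-high cells and all 20 Krt2-low cells kept their group. Both groups occurred in all 8 lettered rows. The plates held different mixes, with 7 Krt2-high and 11 Krt2-low cells on plate 1 and 20 and 9 on plate 2, so the main values are given by plate.

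The label of differentiating cells was checked on genes that the selection did not use. Calm4, an epidermal calmodulin-like protein, had a mean of 8919 CPM in Krt2-high, 5919 in Krt2-low and 2290 in the remaining cells, which are under the Krt10 threshold. Krtdap, a secreted differentiation-associated peptide, had means of 9844, 8169 and 3523 CPM in the same order. Both groups therefore carried early differentiation transcripts above the remaining cells. The late list of 17 genes was low, with 1 member, Casp14, at a mean of at least 50 CPM. Casp14, a protease of cornification, had means of 80.8 CPM in Krt2-high, 59.8 in Krt2-low and 12.1 in the remaining cells. Lor, the main protein of the cornified envelope, had medians of 1.85 CPM in Krt2-high and 3.36 CPM in Krt2-low cells, and Flg and Ivl had means under 10 CPM in both. The summed late list pooled to 234.4 and 267.8 CPM against 121.9 in the remaining cells, and reached 501.8 CPM in a Krt2-high and 1121 CPM in a Krt2-low cell. Transcripts of immune, Merkel, fibroblast, melanocyte and endothelial cells were little seen. The summed T cell and Merkel cell lists were at 0 in all 47 cells, as was Cd34, and the summed fibroblast list reached at most 215.9 CPM in a Krt2-high cell and 104.5 CPM in a Krt2-low cell. The summed Langerhans cell list reached 150 and 275.9 CPM, the melanocyte list 169.2 and 47.7 CPM, and the endothelial list 25.0 and 55.7 CPM. Lists of the hair follicle and sebaceous gland reached more. The upper hair follicle list reached 864.1 CPM in a Krt2-high and 567 CPM in a Krt2-low cell. In the same order the bulge list reached 355.4 and 1143 CPM, and the sebaceous gland list 992.8 and 932.9 CPM. In the remaining cells these 3 lists reached 1253, 1312 and 905 CPM.

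Krt2 itself ran from 3138 to 61637 CPM in the members, with a median of 12011, and from 171.99 to 2066 CPM in Krt2-low cells, with a median of 845.5. The cells nearest the threshold were at 1397, 1737 and 2066 CPM below it and at 3138, 3320 and 3856 CPM above it. Krt10 had a median of 20456 CPM in Krt2-high cells (3105 to 45289) and of 8053 CPM in Krt2-low cells (3179 to 35872). The groups thus differed in the extent of Krt10 as well as in Krt2. For that reason the main results are also given for the cells with Krt10 of at least 10000 CPM, a limit chosen after the data were seen: 23 Krt2-high cells (7 on plate 1, 16 on plate 2) and 9 Krt2-low cells (4 and 5), whose median Krt10 was 22777 and 21353 CPM.

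Among cells with strong Krt10, Krt1, the type II keratin of early suprabasal cells, was lower on average in the Krt2-high cells. The 9 Krt2-low cells held Krt1 at 4488, 10785, 11817, 13207, 20424, 21455, 27205, 32124 and 32412 CPM, so 8 of 9 were at 10000 CPM or more. The 23 Krt2-high cells ran from 144.02 to 31467 CPM with a median of 3803, and 6 of 23 reached 10000 CPM. The ranges overlapped, and the Krt2-high values spread over far more of the scale. The mean was 6957 ± 7679 CPM (SD, n = 23 cells) against 19324 ± 9936 CPM (SD, n = 9 cells). The log2 ratio of these means was -1.47, made up of -0.88 for plate 1 and -1.82 for plate 2. The cells with most Krt2, at 61002 CPM on plate 2 and 61637 CPM on plate 1, had Krt1 at 144.02 and 272.0 CPM. At the other end, the Krt2-high cells with Krt1 of 21412 and 31467 CPM had Krt2 of only 3138 and 3872 CPM. An exception with much of both had 39105 CPM of Krt2 and 16199 CPM of Krt1.

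**Figure D1:**
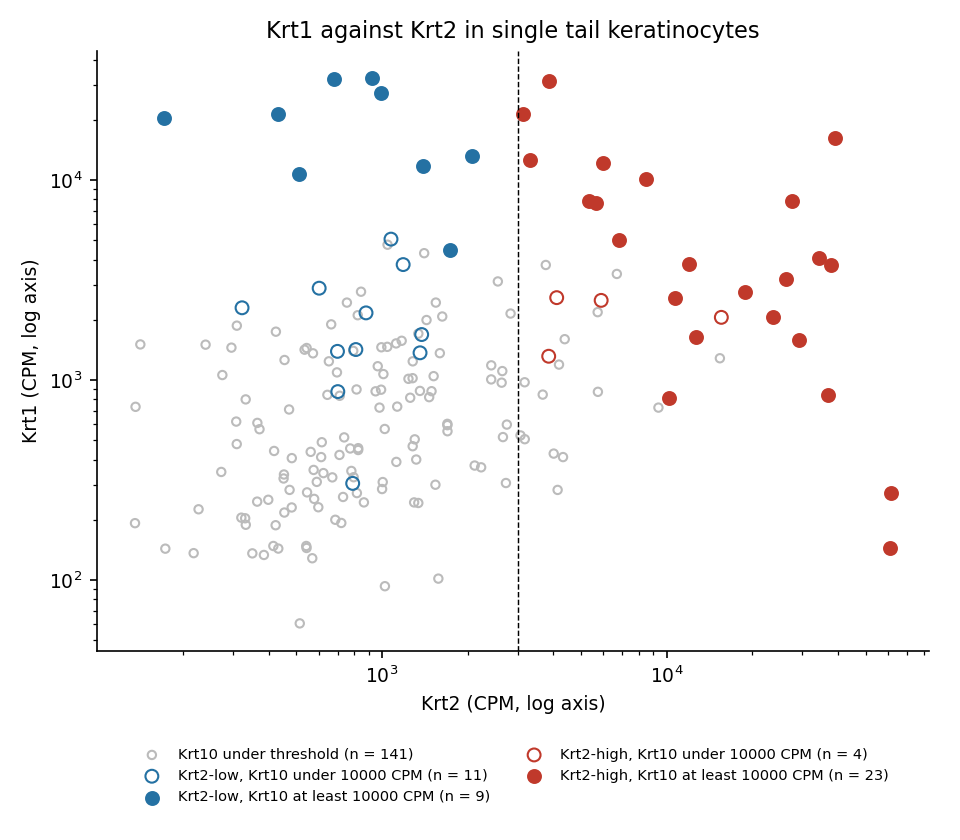
Krt1 (y axis) against Krt2 (x axis) in CPM on log axes, 1 point per cell, with the dashed line at 3000 CPM of Krt2. Filled points are cells with Krt10 of at least 10000 CPM: the 9 Krt2-low cells lie between 4488 and 32412 CPM of Krt1, and the 23 Krt2-high cells spread from 144.02 to 31467 CPM.

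Across the 32 cells with strong Krt10, Spearman's rho of Krt1 with Krt2 was -0.75, with -0.54 on plate 1 (11 cells) and -0.82 on plate 2 (21 cells). Within the 27 Krt2-high cells it was -0.43. Over all 47 differentiating cells it was -0.25. These are descriptions across cells that share plates and perhaps animals and a sequencing pool, neither of which the labels name. Taken over all 47 cells, Krt1 showed no shared direction on the plates: the log2 ratio of means was 0.20 on plate 1 and -1.25 on plate 2.

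Read counts of different genes were set side by side per kilobase of the principal transcript (2455 bases for Krt1, 2613 for Krt2 and 2094 for Krt10). On that scale Krt2 exceeded Krt1 in 16 of the 23 Krt2-high cells with strong Krt10 and in 0 of the 9 Krt2-low cells. The share of Krt2 in the sum of Krt1 and Krt2 per kilobase had a median of 79.7% (10.4% to 99.7%) in these Krt2-high cells and 3.32% (0.785% to 26.7%) in the Krt2-low cells. Krt2-low cells were under 3000 CPM of Krt2 by the rule, and the 9 with strong Krt10 had Krt1 of at least 4488 CPM. Given their Krt1, the count of 0 was fixed by that limit. Since Krt2 and Krt10 chose the cells, these counts, this share and the sums and ratios that follow are descriptions. The sum of Krt1 and Krt2 had a median of 9870 CPM per kilobase (4228 to 23700) in Krt2-high and 8385 (2493 to 13557) in Krt2-low cells. Set against Krt10 per kilobase, the sum had a median ratio of 0.959 (0.442 to 2.11) in Krt2-high and 0.779 (0.406 to 1.1295) in Krt2-low cells. Type II keratins (Krt1, Krt2, Krt5 and Krt77) to type I keratins (Krt10, Krt14 and Krt15) stood at a median ratio of 0.834 and 0.742 in the same cells, and at 0.437 in cells under the Krt10 threshold. The ranges of the sum and of both ratios overlapped between the groups.

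Krt77, another suprabasal type II keratin, was nearly absent, with a median of 0 in both groups and at most 49.3 CPM in a Krt2-high cell and 84 CPM in a Krt2-low cell. Krt7, a type II keratin best known from simple and glandular epithelia, was among the genes counted lower. Its median was 26.96 CPM (4.23 to 968.3) in Krt2-high and 292.1 CPM (2.67 to 1545) in Krt2-low cells, and the log2 ratio of means was -2.28 on plate 1 and -1.68 on plate 2. With strong Krt10 the medians were 25.8 and 430.1 CPM and the log2 ratio was -2.52, although 1 of the 9 Krt2-low cells had only 2.75 CPM. Krt16, a keratin of activated keratinocytes, leaned the other way with medians of 262.9 and 173.1 CPM and log2 ratios of 1.39 and 0.43 on the plates and 1.71 with strong Krt10, and it was not counted. Krt36, a marker of tail scales, had medians of 44.8 and 10.6 CPM, while its log2 ratio of means was 0.35 on plate 1 and -1.33 on plate 2, where 1 Krt2-low cell held 3828 CPM.

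**Figure D2:**
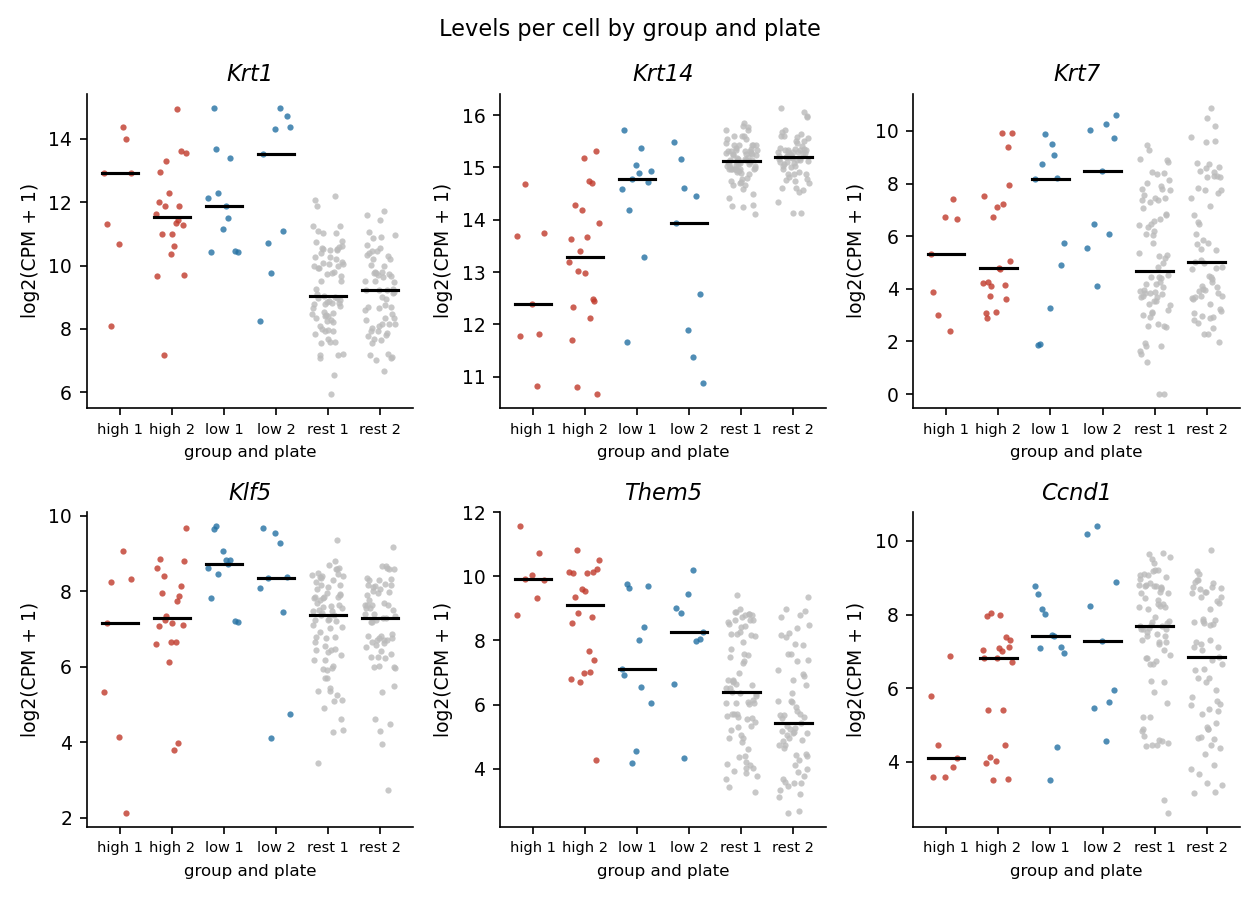
Level of 6 genes as log2(CPM + 1) on the y axis, 1 point per cell, by group (high for Krt2-high, low for Krt2-low, rest for cells under the Krt10 threshold) and plate (1 or 2), with black bars at medians. Krt7 and Klf5 medians are lower in Krt2-high than in Krt2-low cells on both plates, and Krt1 medians are so on plate 2 alone.

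Basal genes were lower on average in Krt2-high cells, most of all on plate 1. Krt14, the basal type I keratin, ran from 1630 to 40925 CPM in Krt2-high cells (median 9369) and from 1898 to 54109 CPM in Krt2-low cells (median 24754). Its log2 ratio of means was -1.52 on plate 1 and -0.36 on plate 2, and -0.02 with strong Krt10. Krt5, its partner, gave -1.45, -0.09 and -0.11 in the same order. Krt15, a keratin of less differentiated basal cells, gave -2.92 and -0.87 on the plates and 0.74 with strong Krt10. With strong Krt10 the basal keratins thus had no shared direction, and Krt14 stood at -0.55 on plate 1 and 0.64 on plate 2. Itga6, the integrin of the gate, had medians of 240.3 and 338.5 CPM. Of the 14 basal list genes with a mean of at least 50 CPM, 12 had a ratio below 0 and 2 above (Trp63 and Lama3), 0 were counted, and the median log2 ratio was -0.64 (-0.19 with strong Krt10) against -0.04 over all genes. Krt14 across the 47 cells went down with Krt10 (rho -0.87) more than with Krt2 (rho -0.32).

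Early differentiation genes other than Krt1 leaned towards Krt2-high cells. Of 13 measured members, 12 had a ratio above 0, Krt1 was the exception, and the median log2 ratio was 0.33 (0.81 on plate 1, 0.09 on plate 2). None was counted. With strong Krt10 the median was -0.03, near the -0.01 of all genes, so this lean too was not seen with strong Krt10. Calm4 ran from 2179 to 20397 CPM in Krt2-high cells (median 8254) and from 1459 to 14681 CPM in Krt2-low cells (median 5181), with log2 ratios of 1.01 and 0.23 on the plates. Mt4, a metallothionein of stratified epithelia, had means of 4555 and 2955 CPM, and Fabp5, a fatty acid carrier, 631.0 and 381.8 CPM. With strong Krt10 the log2 ratios of Mt4 and Fabp5 were -0.07 and 0.01. Desmosome genes, which fix neighbouring cells to each other, had a median log2 ratio of 0.01 over 11 members (-0.36 on plate 1, 0.16 on plate 2) and of -0.28 with strong Krt10. Barrier lipid genes had 0.33 over 10 members (0.53 and -0.03 on the plates) and -0.21 with strong Krt10. Cholesterol synthesis genes had 0.12 over 8 members (0.22 and 0.15) and -0.13 with strong Krt10. None of these 3 lists had a gene counted over the 47 cells, and the median of each changed sign with strong Krt10. With strong Krt10, 1 cholesterol synthesis gene, Fdft1, was counted higher, with log2 ratios of 2.90 on plate 1 and 1.32 on plate 2.

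**Figure D3:**
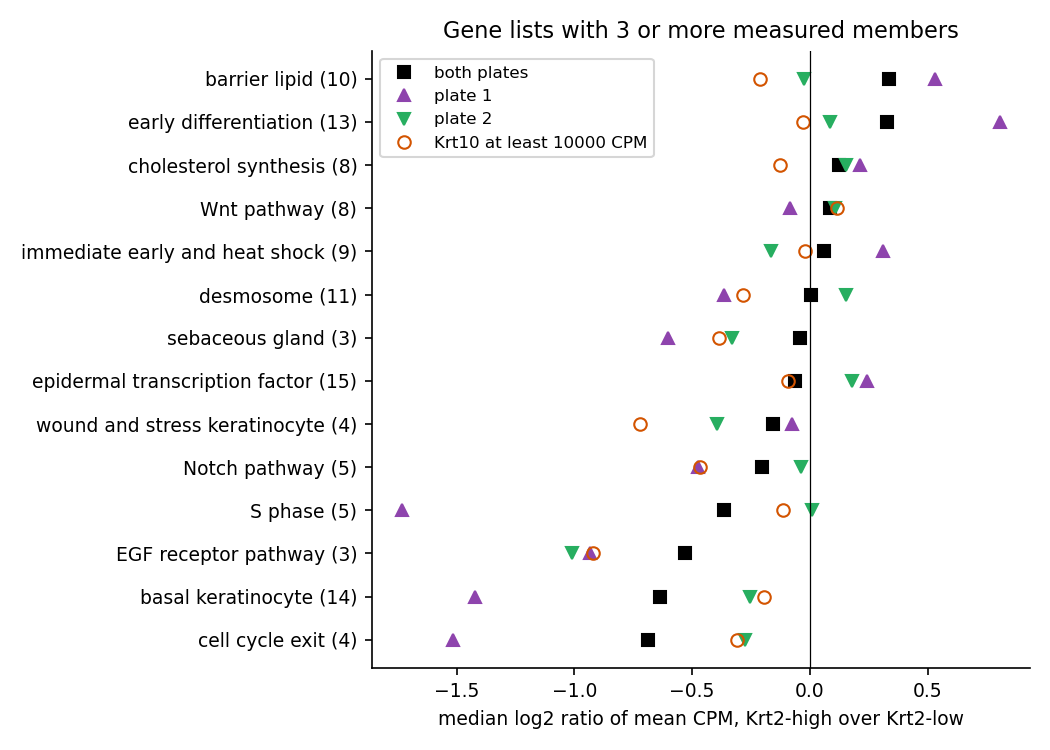
Median log2 ratio of mean CPM, Krt2-high over Krt2-low (x axis), for each gene list with at least 3 members at 50 CPM (y axis, number of such members in brackets), on both plates together, on each plate, and in cells with Krt10 of at least 10000 CPM. The basal list sits at -1.42 on plate 1 and -0.25 on plate 2, and early differentiation moves from 0.33 to -0.03 with strong Krt10.

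Across the whole table a gene was counted higher when, on each plate, its mean CPM was at least 1.5 times that of Krt2-low cells and the Krt2-high cell held more in at least 0.6 of all Krt2-high and Krt2-low cell pairs; lower was the mirror image. Of 3548 genes with a mean of at least 50 CPM, 42 were counted higher (1.18%) and 100 lower (2.82%). This is a rule of size, not a test, and the spread between single cells can carry a gene past it. The number counted higher was 45 without the plate 2 cell in row B, column 4, and 77 without the 5 cells whose expected stray share was at least 20%. With strong Krt10, 75 genes were counted higher (2.11%), and those counted lower made up 4.2% of the table. The genes counted also changed with the thresholds: at 1000 CPM of Krt2, 19 of the 42 higher and 26 of the 100 lower genes were counted again, and at 6000 CPM 12 and 38. Counted with and without the limit on Krt10 were 23 of the higher genes, which is 54.8% of the first list and 30.7% of the second, and 48 of the lower genes, 48% and 32.2%. The cells of the second comparison are part of the first. Most counted genes were scarce: the 42 higher genes had a median of 89.1 CPM and the 100 lower genes 79.4 CPM. Of 652 genes with a mean of at least 200 CPM, 1 was counted higher (Them5) and 6 lower (Klf5, Emp2, Krt7, Eif3a, Eif3b and Gstp1).

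**Figure D4:**
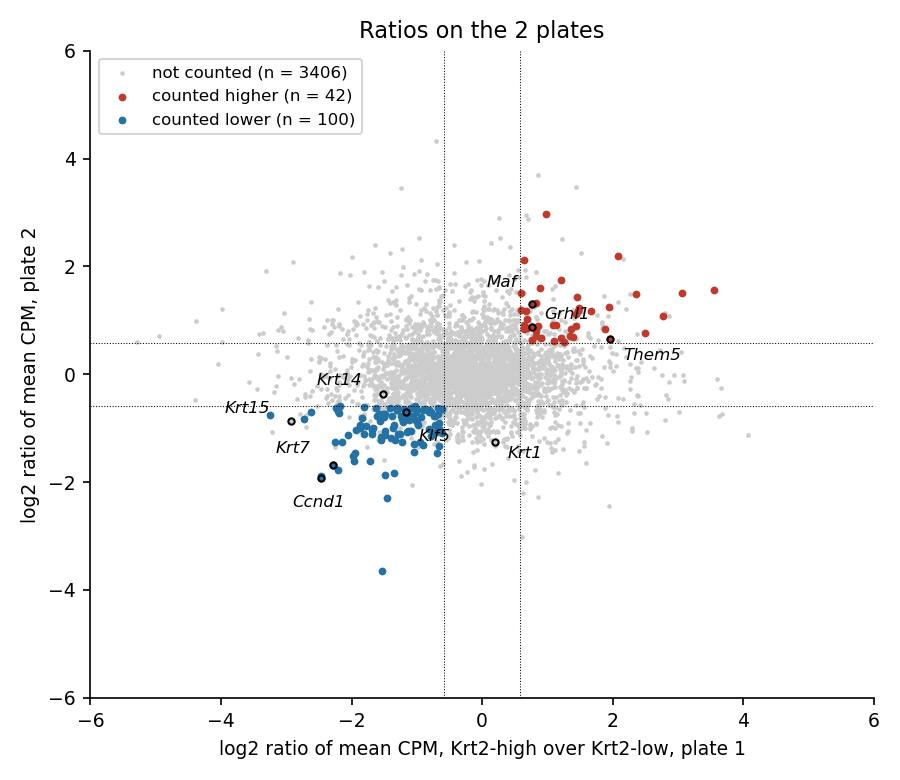
Log2 ratio of mean CPM, Krt2-high over Krt2-low, on plate 1 (x axis) and plate 2 (y axis) for 3548 genes, with dotted lines at a ratio of 1.5 in either direction. The 42 genes counted higher and the 100 counted lower lie in the upper right and lower left corners, and Krt1 lies at 0.20 and -1.25.

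Among transcription factors of the epidermis, 2 of 15 measured were counted higher and 1 lower, beside 1.18% and 2.82% of all genes. None of these calls held each time when 1 cell was left out. Grhl1, a grainyhead factor known to regulate desmosomal cadherins, had a median of 132.9 CPM (0 to 442.2) in Krt2-high and 83.9 CPM (2.43 to 207.1) in Krt2-low cells, with log2 ratios of 0.77 and 0.87 on the plates and 0.70 with strong Krt10. Maf, a factor of keratinocyte differentiation, had medians of 209.6 CPM (20.4 to 555.3) and 95.8 CPM (10.1 to 390.1), with log2 ratios of 0.77 and 1.30 on the plates and 0.78 with strong Krt10. Both ranges overlapped widely. Klf5, a zinc finger factor known from proliferating epithelia, was the one counted lower, with medians of 149.7 CPM (3.40 to 817.9) and 372.1 CPM (16.1 to 839.0) and log2 ratios of -1.17 and -0.70. With strong Krt10 the Klf5 medians were 160 and 616.8 CPM, and the log2 ratio of means was -1.28. Klf5 in cells under the Krt10 threshold had a median of 161.1 CPM, near that of Krt2-high cells. Klf4, another regulator of this tissue, had log2 ratios of 0.24 and 0.18 on the plates, although the ratio over both together was -0.06. Gata3 had -0.81 and -0.16 on the plates.

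Of 4 measured genes of the cell cycle exit list, 2 were counted lower, beside 2.82% of all genes. Ccnd1, the cyclin of the G1 phase, had a median of 54.7 CPM (10.4 to 262.9) in Krt2-high and 162.4 CPM (10.5 to 1346) in Krt2-low cells, and log2 ratios of -2.47 and -1.92 on the plates and -1.31 with strong Krt10. Ccnd3, a related cyclin, had medians of 40.8 and 74.1 CPM, with log2 ratios of -2.20 and -0.67 on the plates and -0.70 with strong Krt10. Ccnd2, a more abundant cyclin of the same list, had means of 608.8 and 691.9 CPM and was not counted. Its log2 ratios were -0.83 on plate 1, 0.13 on plate 2 and 0.13 with strong Krt10. Cdkn1a, the inhibitor p21, had medians of 950.4 and 785.2 CPM, a log2 ratio of 0.08 with strong Krt10, and was not counted. Mki67, a proliferation marker, had medians of 6.69 and 4.81 CPM, and 0 of 28 genes of the G2/M list reached a mean of 50 CPM. The summed G2/M list reached 3681 CPM in a Krt2-high and 698.8 CPM in a Krt2-low cell. The summed S phase list pooled to 582.1 CPM in Krt2-high, 1151.5 in Krt2-low and 2059.6 in the remaining cells, and 0 of its 5 measured members were counted. The median log2 ratio of these 5 was -1.73 on plate 1 but 0.01 on plate 2, and -0.11 with strong Krt10. Egfr, the epidermal growth factor receptor, was counted lower with medians of 20.2 and 42.6 CPM, with a log2 ratio of -1.90 with strong Krt10, and its median was 107.9 CPM in cells under the Krt10 threshold. Il1r2, a decoy receptor for interleukin 1, was counted lower with means of 79.4 and 209.3 CPM. Krt6a, a wound keratin whose reads can be shared with its close paralog Krt6b, was counted lower with medians of 12.4 and 55.3 CPM. Ier3, an immediate early gene, was counted lower with medians of 18.4 and 36.2 CPM. With strong Krt10 its log2 ratio was -1.47 on plate 1 and -0.08 on plate 2. It was the 1 counted of 9 measured genes on the immediate early and heat shock list, beside 2.82% of all genes. Of those 9, 5 had a ratio above 0, and the median log2 ratio was 0.06.

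Among the 15 genes counted higher with the largest ratio on the plate nearer to 0 were Cyp2b10, Trim2, Tspan17, Slc31a2, Slain2, Map4k4, Arrdc4, Stx12, Commd9, Cdk6, Snhg12, Serpinb3b, Tsg101 and Gtf3c6. Slc31a2, a copper transporter of endosomal membranes, had a median of 110.3 CPM (0 to 426.3) in Krt2-high and 8.17 CPM (0 to 120.4) in Krt2-low cells. Arrdc4, an arrestin-like adaptor, had medians of 166.6 and 27.98 CPM. Stx12, a syntaxin of endosomes, and Tsg101, a subunit of the ESCRT sorting machinery, had medians of 80.3 and 87.6 CPM in Krt2-high against 20.2 and 60.3 CPM in Krt2-low cells. These 14 genes kept a ratio above 0 with strong Krt10, from 0.56 for Tsg101 to 2.52 for Slain2 on the log2 scale. The means of some rested on few cells: Cyp2b10, a cytochrome P450, had a mean of 93 CPM in Krt2-high cells and a median of 10.2 CPM.

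The 15 genes counted lower with the largest such ratio were Ccnd1, Postn, Acd, Krt7, Ralgps2, Fam173a, Krt6a, Zbtb4, Mmp14, Klrg2, Trpm7, Ext2, Egfr, Rps6ka1 and Gtf2i. Ralgps2, an exchange factor for Ral GTPases, had a median of 50.1 CPM (0 to 157.9) in Krt2-high and 135.6 CPM (22.3 to 374.7) in Krt2-low cells. Acd, a shelterin protein of telomeres, had medians of 5.54 and 72.1 CPM. Postn, a secreted matrix protein also on the bulge list, had medians of 13.6 and 82.1 CPM, and 114.04 CPM in cells under the Krt10 threshold. With strong Krt10 these 15 had ratios of means below 0, from -0.32 for Ext2 to -2.52 for Krt7. Ext2, a glycosyltransferase of heparan sulfate synthesis, parted by plate there, at 0.64 on plate 1 and -0.78 on plate 2.

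The 6 genes with the highest Spearman rho with Krt2 were Them5 (0.55), Dbi (0.50), Tuba4a (0.49), Hcfc1r1 (0.49), Cbr3 (0.47) and Calm4 (0.45), each across 47 cells that also differ in Krt10. Since Krt2 split these same cells, higher levels of the 6 genes in Krt2-high cells follow from how they were picked. Their values are descriptions. Them5, a mitochondrial acyl-CoA thioesterase, had a median of 748.2 CPM (18.4 to 3009) in Krt2-high, 261.2 CPM (17.2 to 1162) in Krt2-low and 65.8 CPM in the remaining cells. Its log2 ratio was 1.96 on plate 1 and 0.65 on plate 2, and 0.69 with strong Krt10. Dbi, the acyl-CoA binding protein, had medians of 2080.4 and 1379.4 CPM and a log2 ratio of 0.36 with strong Krt10. Their levels overlapped between the groups in every case.

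The following genes were singled out after their values had been seen. S100a11, a calcium-binding protein of the cornified envelope, ran from 86 to 574.0 CPM (median 368.5) in the 23 Krt2-high cells with strong Krt10 and from 383.2 to 1081 CPM (median 585.6) in the 9 Krt2-low cells. Ahnak2, a large scaffold protein, had a log2 ratio of -1.48 in these cells, and Emp2, a membrane protein, one of -0.92. Crabp2, which binds retinoic acid, gave -1.80, with medians of 3.51 and 137.1 CPM.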

How the data were processed

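The file, as deposited by the authors, gives raw counts: the reads of each gene in each cell, as integers. Cutadapt 1.13, STAR 2.5.2b, HTSeq 0.6.0 and GRCm38 are named in the submitters' processing notes. How they were ordered and set, the annotation release and any use of strand: not given in the sources used here. Close paralogs and overlapping genes may therefore share reads, and whole reads count amplified copies. Symbols were found for 49326 of 49585 gene identifiers, and 92 spike-ins were kept apart.

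Counts were scaled to CPM in Python 3.11.15 with numpy 2.4.6, pandas 2.3.3 and scipy 1.17.1. Stray rates were fitted by non-negative least squares on 33 genes with most reads in 1 cell, per read counted. Lengths and positions come from GENCODE M21. R 4.3.3 with scran 1.30.0 gave size factors for an alternative. Steps across genes were run on simulated data, and recovery of set changes was required only at a spread below that of single cells. At a spread like that of single cells, unchanged genes passed the count rule too. A counted gene may therefore owe its place to spread alone. No doublet caller was run. The sort aimed at 1 cell per well, and whether each well held only 1 was not tested.

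Named were the 15 genes counted in each direction with the largest ratio on the plate nearer to 0, counted or most abundant members of the 25 gene lists (314 genes), a set of keratin and marker genes, and the 6 genes with the highest rho with Krt2. Some genes that this rule names are not reported here. The members, lists and rules were chosen with earlier results of these data known. Without a named animal or further label, cells could not be grouped into replicates.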

Additional observations from a re-analysis of the deposited data

Results flagged for a closer look

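Outside the differentiating cells, 15 cells held Krt2 at 3000 CPM or more with Krt10 under 3000 CPM, 7 on plate 1 and 8 on plate 2. They were singled out because they lie outside both groups compared. Their Krt2 ran from 3070 to 15397 CPM with a median of 4191, against 745.8 CPM in the other cells under the Krt10 threshold. Their Krt10 had a median of 926.7 CPM against 699.0 CPM. Krt14 had medians of 35426 and 36945 CPM, and Calm4 of 3422 and 1853 CPM, so basal keratin in these cells was near that of the others and Calm4 was above. After subtraction of expected stray reads, 13 of the 15 remained in this class.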

How the results depend on the processing

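The log2 ratio of Krt1 in cells with strong Krt10, -1.47, ran from -2.19 to -0.88 under 15 other settings and from -1.73 to -1.35 when each cell was left out. All of these kept the limit of 10000 CPM of Krt10, which was chosen after the data were seen and was not varied for this ratio. Without that limit the log2 ratio of Krt1 was 0.20 on plate 1 and -1.25 on plate 2. The numbers of genes depended on the rules. The 42 higher and 100 lower genes became 100 and 230 at a mean of at least 20 CPM, 1 and 6 at 200 CPM, and 1.6e+02 and 367 at 1 CPM. Plate 1 alone gave 354 and 1021, and plate 2 alone 434 and 369. A Krt2 threshold of 1000 CPM gave 74 and 62, and one of 6000 CPM 193 lower. A Krt10 threshold of 6000 CPM gave 76 higher. Reads per spike-in read gave 24 higher, log2(CPM + 1) 203 lower, equal Krt10 1.5e+02 lower, and cells of at least 200000 counts 72 higher. Chosen after seeing the data, a Krt10 threshold of 10000 CPM gave 75 higher, and leaving out cells of at least 20% stray reads gave 77 higher. Leaving out 1 cell at a time gave 37 to 60 higher and no fewer than 93 lower. Only 6 higher and 19 lower genes were counted every time. Krt7, Ccnd1, Postn, Acd, Il1r2 and Slc31a2 were among them. Grhl1, Maf, Klf5, Them5, Egfr, Krt6a, Ccnd3 and Ier3 were not. The ratio turned for Ier3 at Krt2 of 1000 CPM (0.55) and Krt10 of 1500 CPM (0.052), and for Slain2 (-0.24) and Snhg12 (-1.89) at Krt2 of 6000 CPM; the cause was not tested. With all annotated exons as gene length, the Krt2 share of 79.7% became 87.6%. The ratio of Krt1 and Krt2 to Krt10 in Krt2-low cells fell from 0.779 to 0.444. By that measure the length of Krt1 went from 2455 to 4415 bases, while that of Krt2 stayed at 2613. No paired analysis was possible because the cells carry no pairing and no test was made. One group of cells, unnamed animals and plates of unequal mix limit every value to these cells.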
